A study of Mus musculus with 8 samples.

Results

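Transcripts of 9 genes of the matrix metalloproteinase system were followed in mouse liver: the proteinases Mmp2, Mmp9, Mmp13, Mmp14, Mmp15 and Mmp19, and the inhibitors Timp1, Timp2 and Timp3. They were taken by gene symbol from an expression table of 17164 genes, and all 9 were found there. Mmp7 and Mmp12 were left out of the set. Liver RNA came from male C57BL/6 mice in 4 groups of 6, of which 2 livers per group were sequenced. Model mice received diethylnitrosamine (DEN, 0.67%), a liver carcinogen, by abdominal injection at 2 weeks of age. From 8 weeks they also received carbon tetrachloride (CCl4, 20% in olive oil), a hepatotoxin that causes scarring, until sacrifice at 22 weeks. DWYG-M and DWYG-H mice had DEN and CCl4 on the same schedule. From 17 weeks they were also given a herbal medicine, Diwu Yanggan (DWYG) capsules, with a dose of 1 (DWYG-M) or 2 (DWYG-H) clinical equivalents. For control mice saline replaced DEN, and an olive oil injection is not mentioned. The tissue is labelled liver, with no word on whether tumour nodules were part of it.

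Matrix metalloproteinases are zinc-dependent enzymes that are made as inactive precursors and, once activated, cut collagens and other proteins of the extracellular matrix. Tissue inhibitors of metalloproteinases (TIMPs) block their active site, so the balance of both families sets how fast matrix is removed. In scarred liver, activated stellate cells, macrophages and neutrophils are known sources of these proteins, and TIMP1 is a long-used marker of fibrosis.

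Libraries held between 17345627 and 19191382 estimated read counts, and the 2 control replicates correlated across genes at r = 0.984 on log2 CPM, against 0.961 for the 2 model replicates. Major urinary protein genes took 15.3% and 15.4% of control counts and between 0.563% and 3.50% of counts in the other 6 libraries. The median of all tested genes in model vs control was shifted by 0.21 on log2(FPKM + 1) and by 0.50 on log2(TPM + 1), and by −0.01 on counts scaled by TMM, which the fold changes below use. Replicates are separate libraries, and with 2 per group the p-values measure only the spread between these samples. All 9 genes passed the low-value filter (at least 1 FPKM, a fragment count scaled for gene length and library size, in 2 or more libraries). Mmp2, Mmp9, Mmp13 and Timp1 reached that level in no control library and passed through the injured groups, so counts over the 9 genes are given as a description.

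In model vs control, 6 of the 9 genes rose and 0 fell at an adjusted p under 0.05, where 15.1% of all 11606 tested genes rose and 7.12% fell. The 6 were Mmp2, Mmp13, Mmp14, Timp1, Timp2 and Timp3, so each of the 3 inhibitors rose, along with 3 of the 6 proteinases. On TMM-scaled log2 CPM, the scale of all counts of non-overlapping genes here, the model libraries of 7 genes lay above control (30.3% of all genes did), with Mmp9 as the added one. The median log2 fold change was 1.54 over the 9 genes and −0.01 over all tested genes. In this whole-tissue RNA, more cells of a type cannot be told apart from more RNA per cell.

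Mmp2 and Mmp9 encode the gelatinases, which digest denatured collagen and the type IV collagen of basement membranes. Mmp2 (Entrez 17390), made by stellate cells and fibroblasts, had 12.5 and 11.5 FPKM in model, 4.95 and 7.22 FPKM in DWYG-M, 6.09 and 7.94 FPKM in DWYG-H, and 0.900 and 0.840 FPKM in control. The 4 groups did not overlap apart from the 2 DWYG groups, which lay between model and control. Mmp2 rose by 3.51 on the log2 scale in model vs control (SE 0.24, adjusted p = 0.000394), by 2.59 in DWYG-M vs control (SE 0.24, adjusted p = 0.00382) and by 2.80 in DWYG-H vs control (SE 0.24, adjusted p = 0.00218). With any single library left out, Mmp2 was still called against control in model, DWYG-M and DWYG-H (adjusted p of at most 0.00945, 0.0472 and 0.029).

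Mmp9 (Entrez 17395), a gelatinase stored in neutrophil granules and made by macrophages, was low. It had 1.35 and 0.950 FPKM in model, 0.720 and 1.51 FPKM in DWYG-M, 0.790 and 1.53 FPKM in DWYG-H, and 0.640 and 0.240 FPKM in control, on between 12 and 81 reads per library. Every injured library lay above both control libraries, but the 0.720 FPKM of DWYG-M replicate 1 was close to the 0.640 FPKM of control replicate 1. The fold change of 1.11 in model vs control did not pass (SE 0.54, 95% interval −0.14 to 2.35, adjusted p = 0.184), nor did 1.14 in DWYG-M (adjusted p = 0.305) or 1.19 in DWYG-H (adjusted p = 0.231).

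Neutrophil markers were read beside Mmp9. Of 10 listed markers, 6 were tested and 4 of those rose in model vs control (15.1% of all genes did). Ngp and Camp, 2 of the tested markers, reached 1 FPKM in no control library. They passed the filter through the injured groups, so this count is a description. The summed FPKM of all 10 was 206 and 58.4 in model livers, 91.5 and 257 in DWYG-M livers, 109 and 108 in DWYG-H, and 13.1 and 8.77 in control. Ly6g and Mpo, a neutrophil surface antigen and granule peroxidase, were listed at 0 in both control libraries and stayed at or under 0.320 FPKM elsewhere. Most of each library's sum was S100a8 and S100a9. They had 103 and 78.3 FPKM in model replicate 1, and 131 and 91.8 FPKM in DWYG-M replicate 2. Within model and within DWYG-M the library with the larger sum also had more Mmp9. In DWYG-H the marker sums were nearly equal, while Mmp9 was 0.790 FPKM in replicate 1 and 1.53 FPKM in replicate 2. The part of neutrophil RNA in the Mmp9 values was not tested.

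Mmp13 (Entrez 17386) encodes the main interstitial collagenase of rodents, which makes the first cut in fibrillar collagen. Its mean level was the lowest of the 9 in each of the 4 groups, with 1.07 and 0.820 FPKM in model, 0.560 and 1.11 FPKM in DWYG-M, 0.860 and 0.690 FPKM in DWYG-H, and 0.0900 and 0.0200 FPKM in control. The reads behind these values were 46 and 37 in model livers, 24 and 47 in DWYG-M livers, 35 and 30 in DWYG-H, and 4 and 1 in control. No injured library overlapped with control, and the 3 injured groups overlapped with each other. Mmp13 rose by 3.65 on the log2 scale in model vs control (SE 0.62, adjusted p = 0.0063), by 3.53 in DWYG-M (SE 0.62, adjusted p = 0.021) and by 3.43 in DWYG-H (SE 0.63, adjusted p = 0.0175). On the summed reads the ratio of model to control was 13.1, with a 95% counting interval from 5.37 to 41.2 that covers counting error only. The model call was lost without control replicate 2, where the fold change was 3.04 (adjusted p = 0.0529).

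Mmp14 and Mmp15 encode membrane-type proteinases, held at the cell surface. Mmp14 (Entrez 17387), which activates the MMP2 precursor in a complex with TIMP2 and also cuts fibrillar collagen itself, had 30.4 and 37.8 FPKM in model. It had 25.2 and 20.8 FPKM in DWYG-M, 22.2 and 25.9 FPKM in DWYG-H, and 10.8 and 8.95 FPKM in control. As with Mmp2, both DWYG groups lay between model and control without overlap with either. Mmp14 rose by 1.54 in model vs control (SE 0.21, adjusted p = 0.00264), by 1.01 in DWYG-M vs control (SE 0.20, adjusted p = 0.0326) and by 1.07 in DWYG-H vs control (SE 0.20, adjusted p = 0.0201).

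Mmp15 (Entrez 17388), the other membrane-type member, had 9.28 and 16.7 FPKM in model, 10.4 and 12.3 FPKM in DWYG-M, 9.87 and 9.22 FPKM in DWYG-H, and 7.94 and 10.8 FPKM in control. Every pair of groups overlapped apart from DWYG-H and DWYG-M, where both DWYG-H libraries were the lower ones, and model replicate 2 stood above the other 7 libraries. None of its fold changes passed: 0.21 in model vs control (95% interval −0.54 to 0.97), 0.05 in DWYG-M (−0.70 to 0.81) and −0.20 in DWYG-H (−0.96 to 0.56). Leaving out model replicate 2 turned the model fold change to −0.39, and leaving out control replicate 1 to −0.05. For DWYG-M it was −0.08 without DWYG-M replicate 2 and −0.21 without control replicate 1. For DWYG-H it was 0.04 with limma on FPKM values, 0.29 on TPM values and 0.09 without control replicate 2.

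Mmp19 (Entrez 58223), a secreted proteinase that cuts basement membrane components, was the most abundant proteinase of the set in control and in both DWYG groups. It had 25.1 and 26.2 FPKM in model, 29.5 and 30.9 FPKM in DWYG-M, 24.3 and 33.2 FPKM in DWYG-H, and 22.3 and 23.5 FPKM in control. Every injured library was above both control libraries in FPKM, while on TMM-scaled counts model and DWYG-H overlapped with control. The fitted fold changes were −0.10 in model vs control (95% interval −0.53 to 0.33, adjusted p = 0.746), 0.19 in DWYG-M (−0.24 to 0.62) and 0.11 in DWYG-H (−0.32 to 0.54), so a doubling or halving lay outside each interval. The model value turned positive with limma on FPKM values (0.16 with either pseudocount), on TPM values (0.47, adjusted p = 0.0474) and without model replicate 1 (0.04). On TPM values the DWYG-M and DWYG-H fold changes passed as well (adjusted p = 0.0332 and 0.0386); the median of all genes shifted there by 0.50 in model, 0.40 in DWYG-M and 0.41 in DWYG-H. Without DWYG-H replicate 2 the DWYG-H value was −0.11. Counts of Mmp19 were not whole numbers in any library, unlike those of the other 8 genes, so part of its reads may be shared with another gene.

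The 3 inhibitors rose in model vs control and in both DWYG groups vs control. Timp1 (Entrez 21857), a secreted inhibitor made by activated stellate cells and by stressed hepatocytes, had 8.33 and 8.54 FPKM in model, 4.53 and 1.90 FPKM in DWYG-M, 2.49 and 3.91 FPKM in DWYG-H, and 0.10 and 0.21 FPKM in control. Model and control values were tight and far apart, and all 4 DWYG libraries lay between them. Control held 3 Timp1 reads in all, 1 and 2 per library, so the size of the change is given from reads. It was 46.6-fold in model (178 reads, 95% counting interval 15.7 to 228), 17.4-fold in DWYG-M (62 reads, 5.68 to 86.6) and 18.5-fold in DWYG-H (65 reads, 6.06 to 92.1). These intervals cover counting error only and not the spread between livers, such as 45 and 17 reads in DWYG-M. The fitted log2 fold changes were 5.45 in model (95% interval 3.85 to 7.05), 4.02 in DWYG-M (2.29 to 5.75) and 4.10 in DWYG-H (2.38 to 5.82). The adjusted p was 0.00226 in model, 0.0245 in DWYG-M and 0.0173 in DWYG-H.

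Timp2 (Entrez 21858), which inhibits MMP2 and also links its precursor to MMP14, had 17.5 and 16.4 FPKM in model, 8.77 and 10.7 FPKM in DWYG-M, 8.98 and 9.77 FPKM in DWYG-H, and 3.61 and 3.99 FPKM in control. Again the DWYG groups overlapped each other and neither of the other groups. Timp2 rose by 1.88 in model vs control (SE 0.17, adjusted p = 0.000806), by 1.14 in DWYG-M (SE 0.17, adjusted p = 0.0116) and by 1.09 in DWYG-H (SE 0.17, adjusted p = 0.0105). Timp3 (Entrez 21859), which stays bound to matrix and also inhibits ADAM proteinases, had 16.0 and 14.2 FPKM in model, 9.87 and 12.2 FPKM in DWYG-M, 10.1 and 10.2 FPKM in DWYG-H, and 5.71 and 5.07 FPKM in control. Its order of groups was the same. Timp3 rose by 1.22 in model vs control (SE 0.15, adjusted p = 0.0021), by 0.83 in DWYG-M (SE 0.15, adjusted p = 0.023) and by 0.70 in DWYG-H (SE 0.15, adjusted p = 0.0298).

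**Figure D1:**
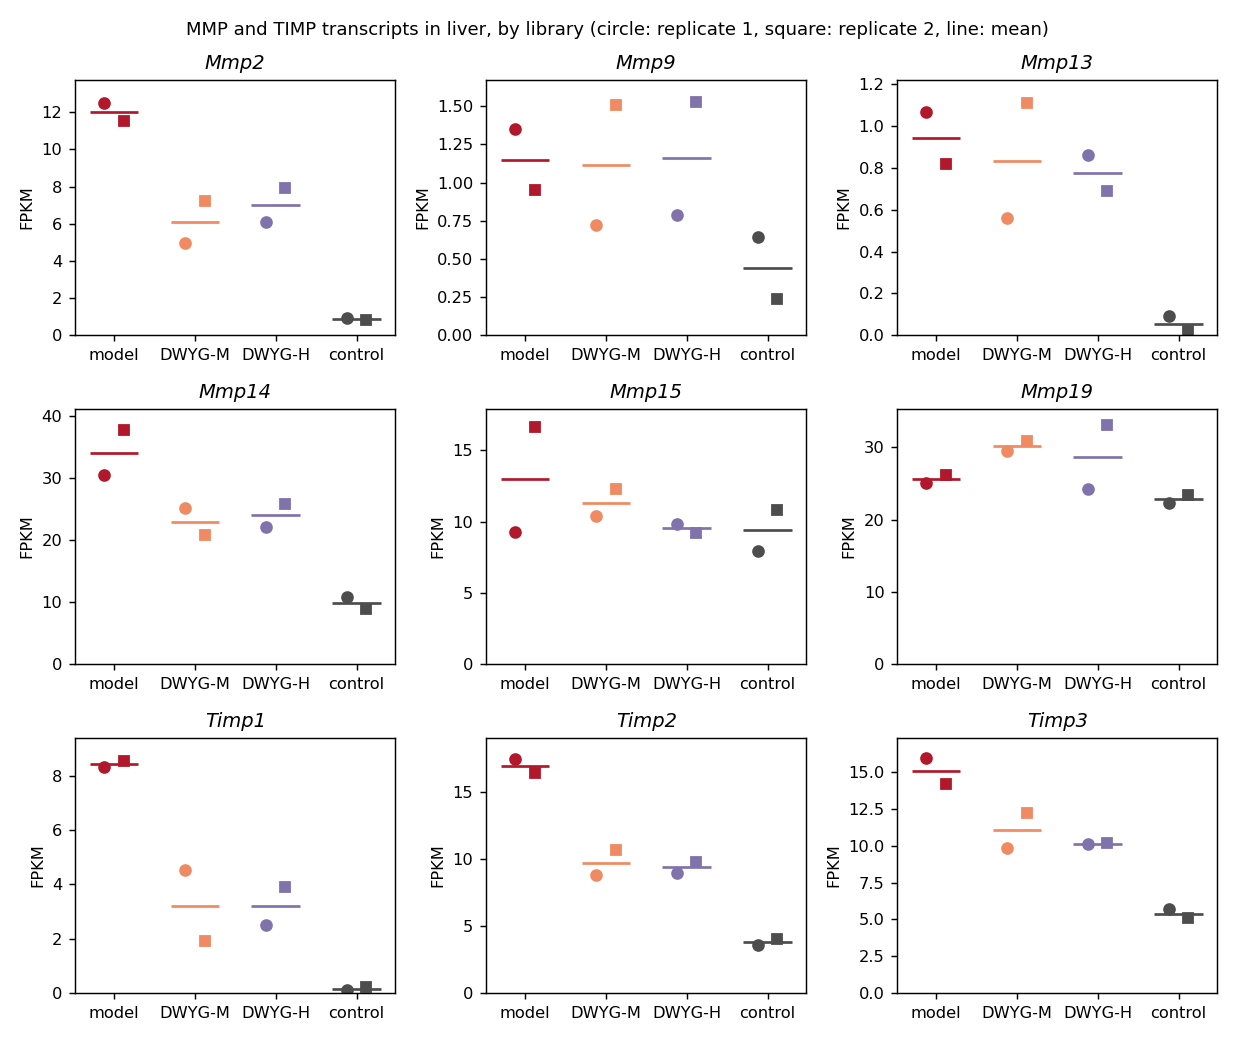
FPKM of each of the 9 genes (vertical axes, linear, from 0) in the 2 libraries of model, DWYG-M, DWYG-H and control; circles are replicate 1, squares replicate 2 and lines the group mean. Mmp2, Mmp14, Timp1, Timp2 and Timp3 show the DWYG libraries between model and control, while for Mmp15 both DWYG groups overlap with control and for Mmp19 every library lies between 22.3 and 33.2 FPKM.

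Promoter sequence is shown as a description, because Mmp13 and Timp1 are textbook targets of the transcription factor AP-1. Promoters of 6 of the 9 genes were in the RefSeq table used here (GRCm38.p6, 250 bases before to 50 after the annotated start); Mmp2, Mmp9 and Mmp19 were not. Each line gives the 80 bases before the start, 5′ to 3′ on the gene's strand, with the motifs searched in capitals.
Mmp13 (chr9:7272434-7272513, plus strand): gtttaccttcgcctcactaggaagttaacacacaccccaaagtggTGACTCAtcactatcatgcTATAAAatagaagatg
Timp1 (chrX:20870086-20870165, plus strand): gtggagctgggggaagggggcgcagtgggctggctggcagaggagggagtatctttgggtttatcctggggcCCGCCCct
Timp2 (chr11:118355412-118355491, minus strand): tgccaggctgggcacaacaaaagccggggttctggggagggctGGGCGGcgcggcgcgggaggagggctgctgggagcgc
Timp3 (chr10:86300332-86300411, plus strand): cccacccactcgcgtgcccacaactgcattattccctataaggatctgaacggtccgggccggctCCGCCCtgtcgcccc
Mmp14 (chr14:54431518-54431597, plus strand): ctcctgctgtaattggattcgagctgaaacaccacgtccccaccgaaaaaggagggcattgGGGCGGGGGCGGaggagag
Mmp15 (chr8:95352216-95352295, plus strand): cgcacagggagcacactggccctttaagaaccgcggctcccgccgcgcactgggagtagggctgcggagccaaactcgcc

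The motifs were searched on both strands of the 300-base windows: AP-1 (TGANTCA), an AP-1-like form (TGAGTAA), RUNX (AACCACA), the TATA box (TATAAA) and the GC box (GGGCGG). Among the 6 promoters the AP-1 motif and the TATA box were found in Mmp13, which also held the RUNX motif 119 bases before the start. Of all 32851 promoters of this length in the table, 7.81% held TGANTCA, 5.27% AACCACA and 13.6% TATAAA. The AP-1-like form was found in Timp1 just after the start, and 2.68% of all promoters held it. This 30-base stretch shows it in capitals.
Timp1 (chrX:20870180-20870209, plus strand): gcggtgggtggaTGAGTAAtgcgtccagga
The GC box was found in Mmp14, Mmp15 (106 bases before the start, upstream of the stretch shown), Timp1, Timp2 and Timp3, and in 35.7% of all promoters. The Mmp13 window was 43.7% G and C, against 55.0% for Timp1, 56.0% for Mmp14, 66.0% for Mmp15, 67.0% for Timp3 and 68.7% for Timp2, and a median of 52.7% over all promoters. The motifs were chosen with these sequences in view, so the shares over all promoters do not test the matches. These are matches of letters and not shown to be bound in these livers.

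The comparison of each DWYG group with control asked which of the genes still stood apart from healthy liver. The 6 genes that rose in model also rose in DWYG-M vs control (4.35% of all genes rose, 0.603% fell) and in DWYG-H vs control (6.59% rose, 1.09% fell), and 0 of the 9 fell in either. In DWYG-M 8 genes lay above control without overlap (28.9% of all genes did), and in DWYG-H 7 (29.6%). Both comparisons share the control libraries with model vs control. These counts rested on having both control libraries. Without control replicate 1 or without control replicate 2, 1 gene remained called in each DWYG group, and in each case it was Mmp2. Adjusted p-values of the other 5 genes were then between 0.0722 and 0.215 in DWYG-M and between 0.0654 and 0.193 in DWYG-H.

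Leaving out a DWYG library also moved these calls. Without DWYG-H replicate 1, 3 genes were called in DWYG-H vs control, with Mmp13 (adjusted p = 0.0745), Mmp14 (adjusted p = 0.0695) and Timp3 (adjusted p = 0.13) lost. Without DWYG-H replicate 2, 2 genes were called, with Mmp14 (adjusted p = 0.098), Timp1 (adjusted p = 0.0692), Timp2 (adjusted p = 0.0508) and Timp3 (adjusted p = 0.112) lost. In DWYG-M vs control, 4 genes were called without DWYG-M replicate 1, with Mmp14 (adjusted p = 0.205) and Timp1 (adjusted p = 0.103) lost. There were 3 without DWYG-M replicate 2, with Mmp13 (adjusted p = 0.0641), Mmp14 (adjusted p = 0.0559) and Timp3 (adjusted p = 0.106) lost. The Mmp14 call in DWYG-M was also lost without DWYG-H replicate 1 (adjusted p = 0.0621), without DWYG-H replicate 2 (adjusted p = 0.0568) and with the replicate number as a block (adjusted p = 0.0502). That of Mmp13 in DWYG-M was lost with limma on log2(FPKM + 1) (adjusted p = 0.0518).

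The comparison of each DWYG group with model asked whether the treated livers differed from untreated diseased ones. By edgeR, 0 of the 9 genes passed in DWYG-M vs model and 0 in DWYG-H vs model, where 0.00862% and 0% of all genes passed. Mmp2, Mmp14, Timp1, Timp2 and Timp3 nevertheless had both libraries of each DWYG group below both model libraries. That is 5 of 9 in each comparison, against 20.2% of all genes in DWYG-M and 17.3% in DWYG-H. At an unadjusted p under 0.05, 5 genes were lower in DWYG-M (7.22% of all genes were) and 4 in DWYG-H (4.99%). Both comparisons share the model libraries.

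Against model, the inhibitor Timp1 gave −1.43 in DWYG-M (95% interval −2.48 to −0.38, adjusted p = 0.294) and −1.34 in DWYG-H (−2.39 to −0.30, adjusted p = 0.476). The DWYG-M value leaned on its replicates, at −2.27 without DWYG-M replicate 1 and −0.90 without DWYG-M replicate 2. Mmp2 gave −0.92 in DWYG-M (−1.40 to −0.44, adjusted p = 0.213) and −0.72 in DWYG-H (−1.20 to −0.24, adjusted p = 0.408). For Timp2 the values were −0.74 in DWYG-M (−1.12 to −0.37, adjusted p = 0.213) and −0.79 in DWYG-H (−1.17 to −0.42, adjusted p = 0.25). The intervals of these 3 genes lie below 0 but are not adjusted for the 11606 genes tested. Timp3 gave −0.39 and −0.51 in DWYG-M and DWYG-H, and Mmp14 gave −0.52 and −0.46 (adjusted p between 0.357 and 0.589). Their unadjusted intervals also lay below 0, apart from that of Mmp14 in DWYG-H (−0.93 to 0.0018). Mmp13 gave −0.12 in DWYG-M (−1.11 to 0.87) and −0.22 in DWYG-H (−1.22 to 0.78). Mmp9 gave 0.03 in DWYG-M (−1.12 to 1.19) and 0.08 in DWYG-H (−1.07 to 1.24). A halving of either gene lay inside these intervals, and so did a doubling of Mmp9.

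The tool mattered here. DESeq2 on the same counts called 2 of the 9 genes in DWYG-M vs model, Mmp2 (−0.92, adjusted p = 0.0427) and Timp2 (−0.74, adjusted p = 0.0383). In DWYG-H vs model it called 1, Timp2 (−0.80, adjusted p = 0.0296). Over all genes DESeq2 called 206 in DWYG-M vs model and 120 in DWYG-H vs model, against 1 and 0 by edgeR. Limma on log2 FPKM or TPM values called 0 of the 9 in either comparison.

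**Figure D2:**
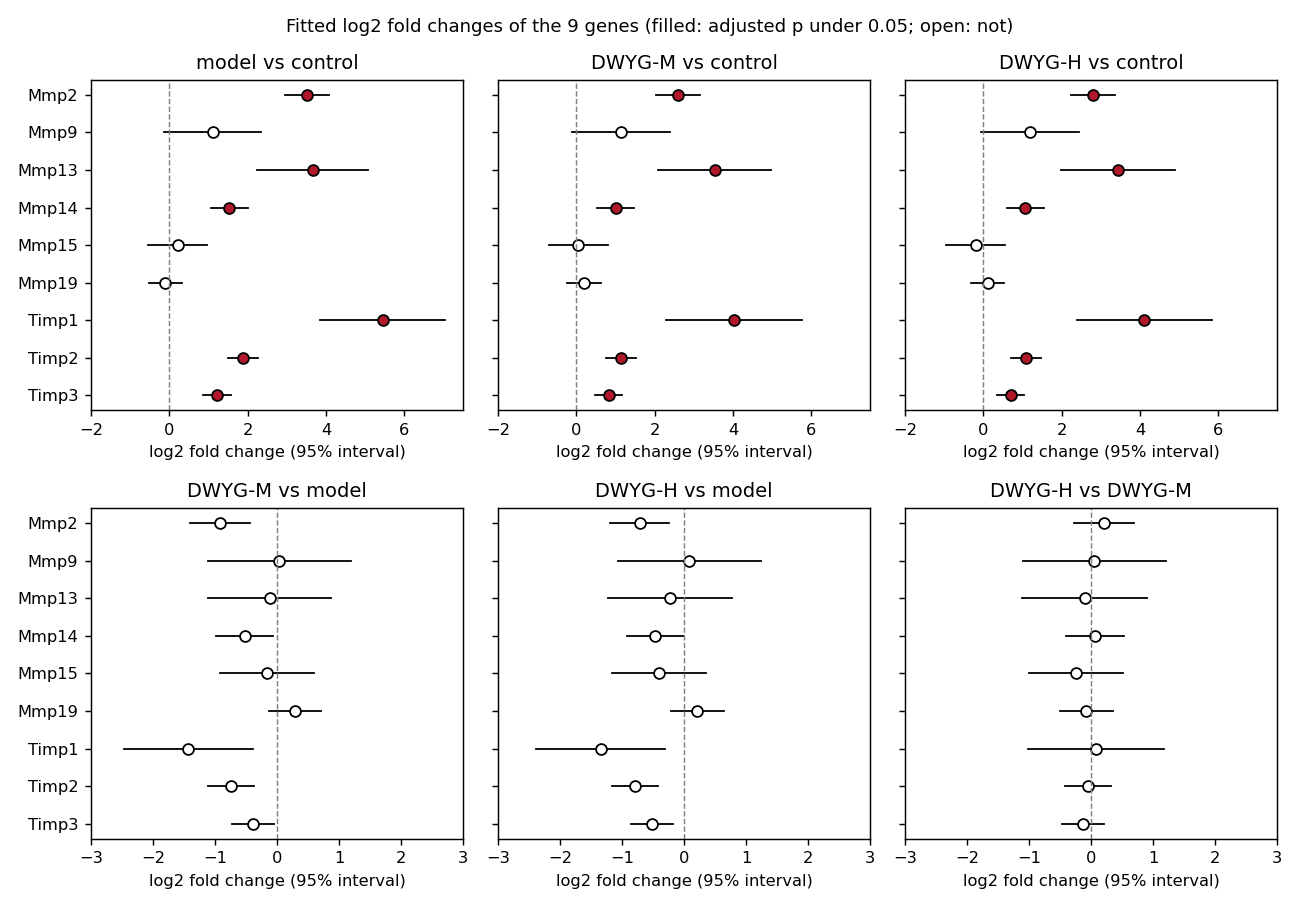
Fitted log2 fold changes (horizontal axes) of the 9 genes with 95% intervals, 1 panel per comparison of 2 libraries against 2; filled points have an adjusted p under 0.05. In each comparison with control 6 genes are filled, and in the comparisons with model and between the DWYG groups none is; Timp1 against control rests on 3 control reads.

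Between the 2 doses, DWYG-H vs DWYG-M, 0 of the 9 genes passed by edgeR, DESeq2 or limma, (0% of all genes by edgeR), and 0 had an unadjusted p under 0.05 (1.66% of all genes did). Fold changes lay between −0.25 for Mmp15 and 0.20 for Mmp2. The narrowest interval was that of Timp3 (−0.47 to 0.22) and the widest that of Mmp9 (−1.10 to 1.21). Mean Timp1 was 3.20 ± 1.00 FPKM in DWYG-H and 3.22 ± 1.86 FPKM in DWYG-M, and mean Timp2 was 9.38 ± 0.56 FPKM in DWYG-H and 9.72 ± 1.34 FPKM in DWYG-M (SD, n = 2 each). Differences smaller than these intervals were not detectable with 2 livers per group.

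Levels per length also changed their order. In model, Mmp14 led with 34.1 ± 5.22 FPKM, ahead of Mmp19 with 25.6 ± 0.75 FPKM (SD, n = 2 each, no overlap). Mmp19 led in DWYG-M with 30.2 ± 1.00 FPKM, ahead of Mmp14 with 23.0 ± 3.08 FPKM. In DWYG-H their libraries overlapped, at 28.7 ± 6.25 FPKM for Mmp19 and 24.02 ± 2.63 FPKM for Mmp14. Within each DWYG-H library Mmp19 was the higher, at 24.3 against 22.2 FPKM in replicate 1 and 33.2 against 25.9 FPKM in replicate 2. In control Mmp19 stood at 22.9 ± 0.83 FPKM, and Mmp14 and Mmp15 overlapped at 9.88 ± 1.32 FPKM and 9.39 ± 2.04 FPKM. Among inhibitors, Timp2 exceeded Timp3 in both model libraries, and Timp3 exceeded Timp2 in each of the other 6 libraries. Timp1 took 19.9% and 21.8% of the summed FPKM of the 3 inhibitors in model, between 7.67% and 19.6% in the 4 DWYG libraries, and 1.06% and 2.27% in control.

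Ratios between genes of the same library do not depend on how libraries are scaled. The summed FPKM of the 3 inhibitors over that of the 6 proteinases was 0.524 and 0.417 in model livers, 0.325 and 0.335 in DWYG-M livers, 0.337 and 0.304 in DWYG-H, and 0.221 and 0.209 in control. Transcripts of these 3 inhibitors were thus more abundant relative to these 6 proteinases in model than in DWYG, and in DWYG than in control, without overlap. Mmp7 and Mmp12 are not in the proteinase sum. The proteinase sum itself was 79.8 and 93.9 FPKM in model, 71.3 and 73.9 FPKM in DWYG-M, 64.1 and 78.4 FPKM in DWYG-H, and 42.7 and 44.3 FPKM in control. Mmp19, which did not pass in any comparison on counts, made up 31.5% and 27.9% of that sum in model and 52.2% and 52.9% in control, so the ratio leans on it. Whether the groups stay apart without Mmp19 was not tested.

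Within the activation complex, Mmp14 over Timp2 was 1.74 and 2.31 in model livers, 2.87 and 1.95 in DWYG-M livers, 2.47 and 2.65 in DWYG-H, and 2.99 and 2.24 in control, with overlap across groups. Mmp2 over Timp2, the proteinase over its inhibitor, was 0.716 and 0.703 in model livers, 0.564 and 0.677 in DWYG-M livers, 0.678 and 0.813 in DWYG-H, and 0.249 and 0.211 in control. All 6 injured libraries exceeded both controls. The DWYG-M libraries lay between model and control, and those of DWYG-H overlapped with model. Between 2 groups of 2 values an exact two-sided permutation test cannot go below p = 0.333, and these ratios were not tested.

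**Figure D3:**
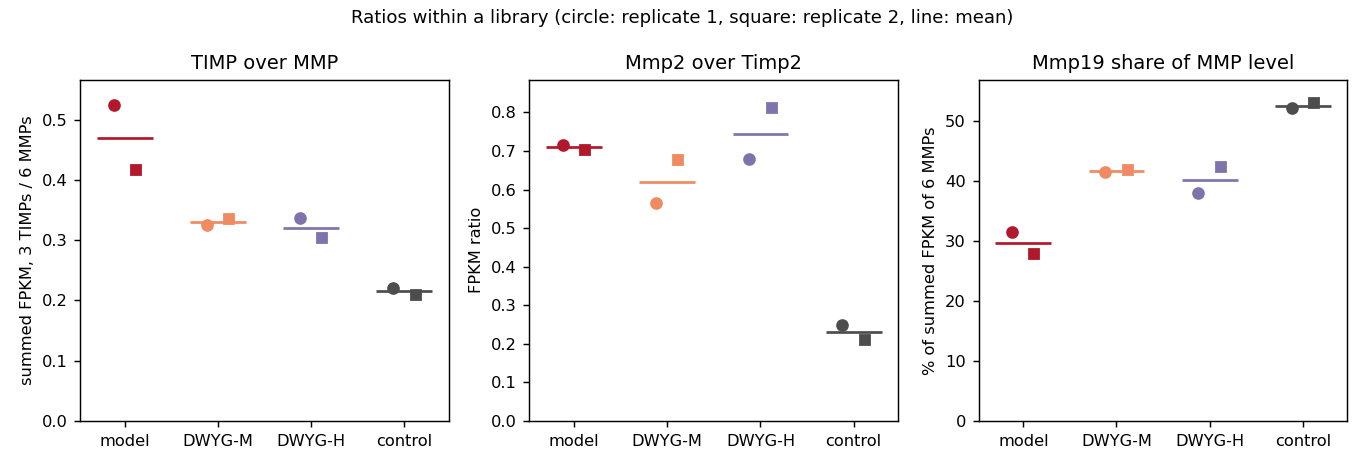
Summed FPKM of 3 TIMPs over 6 MMPs, FPKM of Mmp2 over Timp2, and the percentage of the summed MMP FPKM held by Mmp19, for the 2 libraries of model, DWYG-M, DWYG-H and control (axes from 0; circles replicate 1, squares replicate 2, lines the mean). The first ratio is 0.417 or more in model, 0.304 to 0.337 in DWYG and at most 0.221 in control, while Mmp2 over Timp2 is high in the 3 injured groups.

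Other genes of the proteolytic system were read from 6 lists, again in model vs control. Of all tested genes, 15.1% rose and 7.12% fell there. Against control, 4.35% of all genes rose in DWYG-M and 6.59% in DWYG-H. Plat, Ctsk, Plaur, Thbs1, Adam8, Mmp23 and Col1a1, among others, reached 1 FPKM in no control library. They passed the filter through the injured groups, so the list counts are given as a description. Of 16 other MMP and TIMP genes, 12 were in the table and 1 was tested, Mmp23, a membrane-anchored proteinase. It rose by 2.47 (SE 0.51, adjusted p = 0.0139), with 2.6 and 3.0 FPKM in model, 1.30 and 1.44 FPKM in DWYG-M, 1.26 and 1.67 FPKM in DWYG-H, and 0.170 and 0.570 FPKM in control. The neutrophil collagenase Mmp8 and the stromelysins Mmp3 and Mmp10 were below the filter, at no more than 1.25 FPKM in any library.

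Of 16 genes of MMP activation and pericellular proteolysis, all tested, 8 rose and 0 fell, with a median of 0.74. They were led by Lcn2, whose product protects MMP9 from degradation (8.42), by the tissue plasminogen activator Plat (4.97), by the collagen-cutting cathepsin Ctsk (3.88) and by the urokinase receptor Plaur (3.41). Plg, the liver-made precursor of plasmin, gave 0.06 (adjusted p = 0.884) and Furin, which activates the MMP14 precursor, gave −0.11 (adjusted p = 0.749). In DWYG-M vs control 4 of the 16 rose and in DWYG-H vs control 5, and vs model 0 passed in either group.

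Other inhibitors and clearance genes rose in 7 of 10 tested, with 0 that fell and a median of 1.98. Thrombospondin 1 (Thbs1), a matrix protein of wounded tissue, rose by 4.17, the broad protease trap A2m by 3.98 and Thbs2 by 2.25. The A2m value rested on 3 reads in each control library and on 34 and 89 reads in the model libraries. Reck, a membrane-anchored MMP inhibitor, was below the filter, at 0.590 to 0.970 FPKM over all libraries. The list had 3 that rose in DWYG-M vs control, and 4 that rose and 1 that fell in DWYG-H vs control.

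Among the related ADAM and ADAMTS proteinases, which shed surface proteins or process procollagen and proteoglycans, 8 of 12 tested rose and 0 fell, with a median of 1.60. Adam8, a leukocyte surface proteinase, rose by 3.72, the procollagen-processing Adamts14 by 3.30 and Adamts2 by 2.55, and the aggrecan-cutting Adamts5 by 2.11. In each DWYG group vs control, 5 of the 12 rose. Of 19 tested matrix substrates, 17 rose and 0 fell, with a median of 2.42, led by the type I collagen chains Col1a1 (4.82) and Col1a2 (3.99), elastin Eln (3.74) and the type III collagen Col3a1 (3.59). In DWYG-M vs control 13 of these substrates rose and in DWYG-H vs control 14.

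Factors known to induce MMP and TIMP transcription rose in 12 of 15 tested, with 0 that fell and a median of 0.99. The AP-1 genes Fos and Jun gave 5.30 and 3.11, the cytokine gene Tgfb3 gave 2.79, and Osmr, the receptor of oncostatin M, gave 2.54. Each of these 4 passed, but model replicate 1 stood far above model replicate 2 for Fos (47.7 and 3.61 FPKM) and Jun (98.1 and 16.4 FPKM). In DWYG-M vs control 3 of the 15 rose and in DWYG-H vs control 2. In each of the 6 lists, 0 genes passed in DWYG-M vs model or DWYG-H vs model.

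Markers of cells that could supply these transcripts were read beside them. Col1a1, Pdgfra, Trem2, Gpnmb, Itgam, Krt7 and Epcam reached 1 FPKM in no control library. They passed the filter through the injured groups, so the marker counts are given as a description. Of 11 stellate cell and fibroblast markers, 7 rose and 0 fell in model vs control (15.1% of all genes rose and 7.12% fell). Their summed FPKM was 249 to 317 in model, 211 to 257 in DWYG-M, 201 to 211 in DWYG-H and 104 to 105 in control, the same order of model and control as for Mmp2, Mmp14 and the TIMPs. The largest part of these sums was Dcn, with 191 and 111 FPKM in model and 140 and 180 FPKM in DWYG-M. It had 130 and 134 FPKM in DWYG-H, and 81.4 and 78.5 FPKM in control. The markers Col1a1, Lum and Dcn are also on the substrate list. Of 11 macrophage markers 5 rose and 1 fell, with sums of 263 to 379 in model, 229 to 230 in DWYG-M, 232 to 278 in DWYG-H and 201 to 256 in control. The largest part of these sums was Cd5l, with 142 and 92.7 FPKM in model and 86.3 and 67.8 FPKM in control. Single markers went in opposite directions. Gpnmb had 19.8 and 29.4 FPKM in model and 0.11 and 0.05 FPKM in control. Timd4 had 1.88 and 0.94 FPKM in model and 7.89 and 5.83 FPKM in control. Of 6 tested cholangiocyte markers 5 rose, with sums of 325 to 465 in model, 192 to 225 in DWYG-M, 241 to 285 in DWYG-H and 45.0 to 47.1 in control. Most of these sums was Spp1 (osteopontin), with 293 and 430 FPKM in model, 212 and 175 FPKM in DWYG-M, 229 and 268 FPKM in DWYG-H, and 38.4 and 33.7 FPKM in control. Spp1 was also the 1 marker of this list that rose in DWYG-M and in DWYG-H vs control.

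Endothelial markers had 1 of 8 that rose, and hepatocyte markers 0 of 7 tested, with 0 that fell in either list. Markers of T, NK and B cells summed to 27.9 FPKM in DWYG-H replicate 2 and to between 4.01 and 11.3 FPKM in the other 7 libraries. That library also had the highest Mmp19 of all 8. Its Mmp9 was nearly equal to that of DWYG-M replicate 2 (1.53 and 1.51 FPKM), which was the higher of the 2 on TMM-scaled log2 CPM. The part of cell numbers in the MMP and TIMP values was not tested.

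Likeness to other genes was measured as the root mean square distance between log2 CPM profiles over the 8 libraries, each centred on its own mean, among tested genes with a mean of at least 5 FPKM. It is a description of these libraries. The 3 profiles closest to Timp2 were those of Cygb, a globin of stellate cells (0.15), Rab31 (0.17) and Rgs10 (0.18). Timp3 was closest to Igfbp7 (0.069), Gas6 (0.12) and Tgif1 (0.12), and Mmp2 to Emp1 (0.22), the matrix proteoglycan gene Lum (0.31) and Gpx3 (0.31). Mmp14 was closest to Ppp1r9b (0.081), Csrp1 (0.11) and Itm2c (0.11). Mmp9 was closest to Cd52, a leukocyte surface antigen (0.29), Plgrkt (0.31) and Plac8 (0.34).

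The distance is not scaled to a gene's own spread, so flat profiles tend to give small distances. The SD of log2 CPM over the libraries was 1.80 for Timp1, 1.44 for Mmp13, 0.35 for Mmp15 and 0.18 for Mmp19. Mmp13 was closest to Lum (0.37), H2-Q1 (0.43) and the calprotectin chain S100a8 (0.47), and Timp1 to the p53 target Phlda3 (0.40), Mfge8 (0.43) and the endotoxin co-receptor Cd14 (0.45). Mmp19 was closest to Tmem192 (0.064), Tmem94 (0.068) and Tex261 (0.074), and Mmp15 to Acy3 (0.11), Yif1a (0.13) and Epha1 (0.13).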

How the data were processed

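Liver RNA-seq of 8 mice was read from 1 deposited table. Per the labels' protocols, libraries were made with the SMART-Seq mRNA LP kit; per the submitters' processing notes the genome build was GRCm39. For aligner, counter, annotation and strand setting: not given in the sources used here. Per the file headers, the authors deposited a read count, FPKM, TPM and normalized read count for every gene in every library. The authors' counter produced estimated counts, going by the deposited values: 89.8% to 91.5% per library were whole within 0.005 and the rest had fractions; all were rounded here. The normalized counts deposited by the authors (a signal scaled per library) and the 16 group averages were not used.

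The main test was edgeR 4.0.16 (quasi-likelihood, TMM, R 4.3.3) in 1 model of 4 groups over 8 libraries (4 residual degrees of freedom). It covered the 11606 genes that reached 1 FPKM in 2 or more libraries. Benjamini-Hochberg adjustment ran over all tested genes, and adjusted p under 0.05 was a call. SEs come from the F statistic, and 95% intervals are per gene, unadjusted. DESeq2 1.42.0, limma 3.58.1 on deposited FPKM and TPM values (log2 with a pseudocount of 1, or 0.1 for FPKM), other filters and scalings, and leaving out each library were alternatives. The fits were tried on simulated counts with the same dispersion for every gene, which does not show their error rates on these libraries.

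Named genes are all members, up to 4 called genes per list with the largest fold change in model vs control, and the 3 nearest profiles per member. A result that this rule would name is not reported here. Other genes named for their role or level (Mmp3, Mmp8, Mmp10, Plg, Furin, Reck, Ly6g, Mpo, S100a8, S100a9, Spp1, Dcn, Fosb, Junb, Jund) were chosen after their values were seen. The markers Cd5l, Gpnmb, Timd4, Ngp, Camp, Pdgfra, Trem2, Itgam, Krt7 and Epcam were also named after their values were seen. Members and lists were chosen with earlier results of these data known. Genes are matched by symbol. Promoters are from RefSeq (GRCm38.p6), a build other than that of the counts; motifs were chosen with the sequences in view.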

Additional observations from a re-analysis of the deposited data

How the results depend on the processing

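Of 972 refits (9 genes, 6 comparisons, 18 alternatives each), 890 kept direction and side of the threshold, 37 lost a call, 5 gained one with the sign kept and 40 changed sign, 0 of these from a called value. Among the sign changes, Mmp19 in model vs control by limma on TPM values also gained a call (adjusted p = 0.0474). In model vs control, 6 genes were called, and 5 to 6 with any library left out. In DWYG-M vs control and in DWYG-H vs control it was 6, and 1 to 6 with a library left out. In the comparisons with model 0 passed, and by DESeq2 2 (DWYG-M) and 1 (DWYG-H). Counts over all genes moved by more than 1.5 times. In model vs control they were 2582, and 5448 on TPM values, 1669 with only the 2 groups compared and 812 to 2845 with a library left out. In DWYG-M vs control they were 575, and 1007 by DESeq2, 1069 by limma on log2(FPKM + 0.1), 2820 on TPM values and 39 to 844 with a library left out. In DWYG-H vs control they were 892, and 1385 by DESeq2, 1431 by limma on log2(FPKM + 0.1), 3369 on TPM values and 77 to 1248 with a library left out. In DWYG-M vs model they were 1, and 206 by DESeq2 and 0 to 3 under the other settings apart from 1 to 29 with a library left out. In DWYG-H vs model they were 0, and 120 by DESeq2, 0 to 4 under the other settings and 0 to 17 with a library left out. In DWYG-H vs DWYG-M they were 0, and 5 by DESeq2 and 0 to 2 with a library left out. The share higher among called genes in model vs control was 68.0%, or 91.7% to 97.5% by limma.

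Sign changes were as follows; the cause was not tested. Mmp15 gave −0.39 to 0.66 (model vs control), −0.21 to 0.34 (DWYG-M vs control), −0.46 to 0.089 (DWYG-H vs control), −0.59 to 0.45 (DWYG-M vs model) and −0.84 to 0.20 (DWYG-H vs model) with a library left out. Mmp15 in DWYG-H vs control was 0.035 and 0.040 by limma on FPKM (pseudocounts 1 and 0.1) and 0.29 on TPM. Mmp19 in model vs control was 0.16 by limma on FPKM with either pseudocount and 0.47 on TPM, and −0.23 to 0.044 with a library left out; it gave −0.11 to 0.30 (DWYG-H vs control) and −0.014 to 0.42 (DWYG-H vs model). Mmp9 in DWYG-M vs model was −0.043 and −0.10 by limma on FPKM, −0.10 on TPM, −0.0044 with the replicate block and −0.59 to 0.47 with a library left out. In DWYG-H vs model Mmp9 was −0.0085 and −0.035 on FPKM, −0.044 on TPM and −0.45 to 0.48. Mmp13 in DWYG-M vs model gave −0.70 to 0.29. In DWYG-H vs DWYG-M the ranges were −0.045 to 0.50 (Mmp2), −0.48 to 0.68 (Mmp9), −0.52 to 0.48 (Mmp13), −0.067 to 0.20 (Mmp14), −0.30 to 0.12 (Mmp19), −0.44 to 0.93 (Timp1), −0.19 to 0.10 (Timp2) and −0.27 to 0.037 (Timp3).

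Replicate numbers are shared across groups, but nothing says that they pair mice: deviations of same-numbered libraries correlated at −0.14 to 0.26 across genes. With the replicate block, 6, 5 and 6 genes were called in model, DWYG-M and DWYG-H vs control, and 0 in the other 3 comparisons. Depth limits Timp1 and Mmp13, with 3 and 5 control reads in all, and Mmp9, with 33 and 12 per control library.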

Other observations

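Some AP-1 transcripts differed widely between the model livers. Fos, an immediate early gene, had 47.7 and 3.61 FPKM in model replicates 1 and 2, Jun 98.1 and 16.4 FPKM, and Fosb 6.79 and 0.140 FPKM. In the same libraries Timp1 had 8.33 and 8.54 FPKM, Mmp13 1.07 and 0.820 FPKM, and Mmp2 12.5 and 11.5 FPKM, while Mmp15 had 9.28 and 16.7 FPKM. Fos was 1.13 to 3.16 FPKM in the 4 DWYG libraries and 0.460 and 0.550 FPKM in control. Junb and Jund, also AP-1 genes, differed less between the model replicates, at 49.98 and 40.7 FPKM for Junb and 33.9 and 30.2 FPKM for Jund. A relation between these genes was not tested.

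Serpine2, an inhibitor of plasminogen activators and thrombin, had 7.74 and 8.86 FPKM in model, 3.78 and 5.48 FPKM in DWYG-M, 3.38 and 3.92 FPKM in DWYG-H, and 7.31 and 10.7 FPKM in control. It fell by 1.52 in DWYG-H vs control and gave −0.39 in model vs control (adjusted p = 0.363). It was named after its values were seen, as the 1 gene that fell in its list.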
